A study of Mus musculus with 12 samples.

Results

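Glycogen is a branched glucose polymer that is built, bound, trimmed and degraded by a small set of proteins, and 9 of their genes were followed in mouse spinal cord: Stbd1, Gys1, Gyg, Gbe1, Pygb, Pygm, Pygl, Gaa and Epm2a. They were taken by gene name from the 38924 genes of the deposited tables, all 9 were found once, and all 9 were among the 17189 genes that passed the filter on low counts. They were chosen by their known roles in glycogen metabolism and on the measured ETAQ/+ against WT difference of Stbd1, so the genotype values of the members are given as a description, without a test.

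Whole spinal cord RNA was sequenced from 12 mice aged 8 weeks on a B6J;FVB background. The 6 wild-type mice (WT, labelled ETAQ+/+) and the 6 heterozygous mice (ETAQ/+, labelled ETAQ+/-) each comprised 3 females and 3 males. ETAQ is a deletion in Gars, the gene for glycyl-tRNA synthetase, which loads glycine onto its tRNA, and in people dominant GARS variants underlie an inherited disease of peripheral nerves. Each library came from 1 mouse, named here by the number in its title: WT mice were 2, 3 and 4 (male) and 7, 10 and 12 (female), and ETAQ/+ mice were 1, 8 and 9 (female) and 5, 6 and 11 (male).

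As background, glycogenin, encoded by Gyg, starts a glycogen particle by adding glucose to itself, glycogen synthase lengthens the chains, and the branching enzyme joins them into a tree. Glycogen phosphorylase removes glucose from the chain ends in the cytosol, and acid alpha-glucosidase degrades glycogen that has reached the lysosome. Stbd1 protein binds glycogen through a starch-binding domain and is thought to tether it to membranes and to the autophagy machinery. In the central nervous system most glycogen lies in astrocytes, and excess glycogen in neurons is a feature of Lafora disease, which is caused by loss of laforin (EPM2A) or its partner malin.

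Between 23595929 and 41452662 expected counts were assigned per library, and the 9 spinal cord markers (among them Snap25, Mbp, Gfap and Chat) summed to 25970 to 35600 CPM (counts divided by library total and TMM factor) in every library. Gars stood at 119.6 to 132.7 CPM in WT and at 135.5 to 150.7 in ETAQ/+, and gene counts do not separate its normal from its deleted allele. Markers of skeletal muscle, neutrophils and Schwann cells were far higher in mice 1 to 6 than in mice 7 to 12. The origin of this RNA was not tested. The 10 skeletal muscle markers summed to 65.6 to 1015 CPM in mice 1 to 6, highest in mouse 2, and to 1.15 to 2.07 in mice 7 to 12. The 7 neutrophil markers summed to 95.2 to 176.6 against 0.338 to 3.81, and the 3 Schwann cell markers to 168.9 to 459.4 against 1.196 to 6.95. Each set of 6 held 3 mice of each genotype, but mice 1 to 6 were 5 males and 1 female and mice 7 to 12 the reverse. Set and sex thus largely coincided, and among WT mice they coincided fully.

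The promoter of Stbd1 is shown because this gene had the largest genotype difference of the 9, and that of Gbe1 because its difference had the opposite sign. Both are the 250 bases before the RefSeq start site (GRCm38.p6, plus strand), with matches to the GC box (GGGCGG on either strand) in capitals.
Stbd1, chr5:92602801-92603050: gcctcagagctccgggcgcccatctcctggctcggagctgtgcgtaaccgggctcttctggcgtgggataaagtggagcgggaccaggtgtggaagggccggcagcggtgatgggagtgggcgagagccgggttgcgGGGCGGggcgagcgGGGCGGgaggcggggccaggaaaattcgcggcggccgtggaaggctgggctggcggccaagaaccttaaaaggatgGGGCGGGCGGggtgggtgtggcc
Gbe1, chr16:70313699-70313948: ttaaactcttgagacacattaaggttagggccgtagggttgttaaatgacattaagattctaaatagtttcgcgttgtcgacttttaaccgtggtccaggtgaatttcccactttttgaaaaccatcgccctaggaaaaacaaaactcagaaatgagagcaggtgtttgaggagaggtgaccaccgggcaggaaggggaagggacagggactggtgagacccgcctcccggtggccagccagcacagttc

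The Stbd1 window held 4 GC boxes, beginning 113, 99, 23 and 19 bases before the start, the last pair overlapping, while the Gbe1 window held none. The GC content was 71.2% for Stbd1 and 48.8% for Gbe1, against a median of 52.4% over 32851 promoter windows of the same length, 32.7% of which held a GC box. Windows of all 9 genes were in the table, and 5 held a GC box (Stbd1, Gys1, Gyg, Pygl and Epm2a). The ATF4/CHOP composite element was searched on both strands as TGATGNAA and was in none of the 9 windows, against 3.45% of all windows. An E-box, CACGTG, was found in the window of Gaa alone (6.02% of all windows), and TATAAA in none of the 9 (12.4% of all).

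Levels between genes were compared in TPM, which scales for transcript length. Gaa, the lysosomal glucosidase, stood at 182.7 ± 17.8 TPM (SD, n = 12 mice) and Pygb, the brain form of glycogen phosphorylase, at 181.7 ± 11.5. Gaa was above Pygb in 5 of the 12 mice, so the order of this pair did not exceed their spread. Pygm, the muscle form of phosphorylase, which astrocytes also use, followed at 91.5 ± 10.1 TPM, then Gyg at 39.8 ± 2.05, Epm2a at 20.8 ± 2.33 and the glycogen synthase gene Gys1 at 14.4 ± 0.692. The branching enzyme gene Gbe1 stood at 11.2 ± 1.16 TPM. From Pygb down to Pygl, each gene was above the next in all 12 mice. Pygl, the liver form of phosphorylase, had 4.86 ± 1.38 TPM and Stbd1 3.05 ± 1.68, the lowest level of the 9.

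The step from Pygl to Stbd1 depended on genotype. In WT, Pygl was at 4.31 ± 0.830 TPM and Stbd1 at 1.47 ± 0.180 (n = 6), whereas in ETAQ/+ the values were 5.41 ± 1.66 and 4.64 ± 0.345 (n = 6), which differ by less than the SD of Pygl. Of the summed TPM of the 3 phosphorylase genes, Pygb made up 64.2% ± 4.01 in WT and 66.5% ± 2.68 in ETAQ/+, Pygm 34.3% ± 3.75 and 31.6% ± 2.40, and Pygl 1.52% ± 0.292 and 1.97% ± 0.538. The phosphorylase RNA of the cord was thus mainly that of the brain form in both genotypes.

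**Figure D1:**
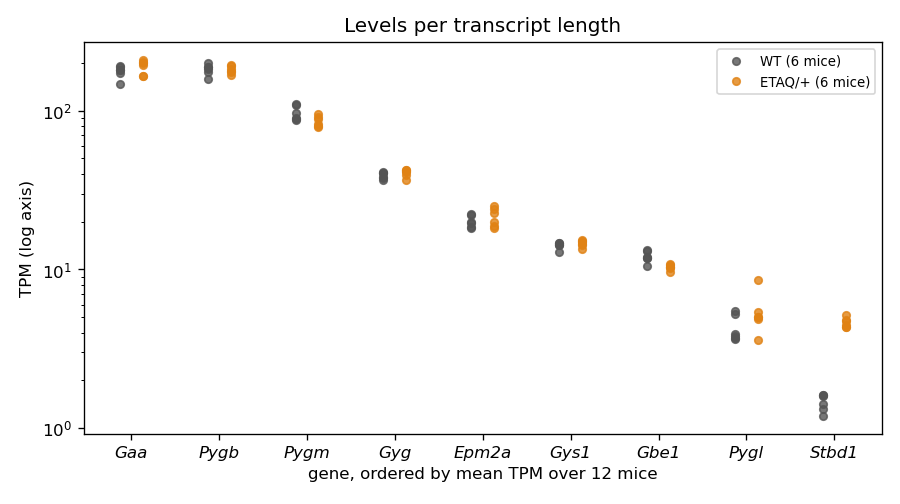
TPM of the 9 genes on a log axis, 1 point per mouse, WT in grey and ETAQ/+ in orange, ordered by the mean over 12 mice. Gaa and Pygb lie together near 182 TPM, and Stbd1 is the gene whose points fall into 2 groups by genotype, around 1.47 and 4.64 TPM.

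Stbd1 (ENSMUSG00000047963, chromosome 5, 92603041 to 92606579, plus strand, GRCm38) was about 3 times as abundant in ETAQ/+ cords. The WT mice 2, 3, 4, 7, 10 and 12 had 1.85, 1.63, 1.75, 1.22, 1.38 and 1.49 normalised CPM. The ETAQ/+ mice 1, 5, 6, 8, 9 and 11 had 5.29, 5.31, 4.64, 4.38, 4.27 and 4.73. The groups did not overlap, and the lowest ETAQ/+ mouse, 9, stood well above the highest WT mouse, 2. The means were 1.55 ± 0.236 CPM in WT and 4.77 ± 0.446 in ETAQ/+ (SD, n = 6 each), a ratio of 3.07 and a log2 fold change of 1.62 ± 0.10 (standard error, SE). A larger absolute log2 fold change was found in few genes, 99.6% of those tested having a smaller one. These levels rest on 34 to 179 counts per library. In bulk tissue, a change in the number of cells of a type and a change in RNA per cell cannot be told apart.

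The Stbd1 values are also given by set, as a description, because the gene was chosen on its difference in these same mice. The part of RNA of other tissues in them was not tested. Within mice 7 to 12, where muscle markers summed to at most 2.07 CPM, the log2 fold change was 1.66 ± 0.17 (SE). Within mice 1 to 6 it was 1.5 ± 0.16. Sex was a term of both fits, so they rest on ETAQ/+ mice 8 and 9, and 5 and 6, against the WT mice. ETAQ/+ mice 11 and 1 had no WT mouse of their sex in their set. The difference of the genotype effects between the sets was -0.15 ± 0.22 on the log2 scale (edgeR adjusted p = 0.995), and between females and males it was 0.28 ± 0.20 (adjusted p = 0.907), both tests that the choice of the gene did not use. Means were 1.36 ± 0.138 and 4.65 ± 0.564 CPM in WT and ETAQ/+ females, and 1.74 ± 0.107 and 4.90 ± 0.363 in males (n = 3 each). Markers of motor neurons moved with genotype, the 6 of 7 found in the tables summing to 215.4 to 257.1 CPM in WT and 127.2 to 162.3 in ETAQ/+, and those of sensory neurons summed to 2.05 to 2.97 against 11.4 to 17.4. Their part in the Stbd1 difference was not tested.

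Genes next to Stbd1 had smaller estimates, and none of them passed the test. Fam47e, which ends 11.8 kb before it, was at a log2 fold change of 0.45 ± 0.42 (SE, edgeR adjusted p = 0.794), and Ccdc158, which ends 1.4 kb beyond it on the opposite strand, at 0.26 ± 0.26 (adjusted p = 0.811). Both were at low levels, with means of 0.279 and 0.41 CPM over the 12 mice. The 12 tested genes within 500 kb lay between -0.10 and 0.45, against 1.62 for Stbd1. At the share of 1.92% called among all tested genes, 12 genes are too few for the absence of a call to be read. None of its exon bases overlapped another gene, and none of its 75-base sequences occurred in a transcript of another gene in GENCODE M21. Gars lies on chromosome 6, and none of the 9 genes does.

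The genes whose profile over the 12 mice was nearest to that of Stbd1 were Gm3095, Cth, Gm10704, Gm3591 and Fut1. The measure was the mean absolute difference of log2(CPM + 0.1) relative to the WT mean, which was 0.278 for Gm3095, 0.349 for Cth, 0.368 for Gm10704, 0.386 for Gm3591 and 0.387 for Fut1, against a median of 0.882 over all tested genes. Cth, which makes cysteine from cystathionine, was at 2.06 ± 0.222 CPM in WT and 4.40 ± 0.601 in ETAQ/+ (n = 6 each). Fut1, a fucosyltransferase gene, was at 0.0299 ± 0.0419 and 0.340 ± 0.119. The added 0.1 exceeds its WT mean, and its fitted log2 fold change was 3.49 ± 0.56 (SE), against 1.62 for Stbd1. By a root mean square measure, Gm3591 and Fut1 were not among the 5 nearest. The counts of Gm3095, Gm3591 and Gm10704 are uncertain, because 88.2%, 88.0% and 32.6% of the 75-base sequences in their transcripts also occur elsewhere. All 5 were picked for their likeness, which is a description.

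Of the genes that build glycogen, Gbe1 was lower in ETAQ/+ and Gys1 and Gyg were close to WT. Gbe1 (ENSMUSG00000022707, chromosome 16, 70313949 to 70569716) had 18.9, 20.6, 20.1, 18.8, 19.5 and 19.6 CPM in WT mice 2, 3, 4, 7, 10 and 12. In ETAQ/+ mice 1, 5, 6, 8, 9 and 11 it had 17.45, 15.9, 17.04, 16.3, 16.2 and 16.1. The groups did not overlap, with ETAQ/+ mouse 1 the nearest to WT. The mean was 16.5 ± 0.597 CPM in ETAQ/+ against 19.6 ± 0.707 in WT (n = 6 each), a ratio of 0.844 and a log2 fold change of -0.24 ± 0.04 (SE). It was -0.25 ± 0.08 within mice 7 to 12 and -0.27 ± 0.08 within mice 1 to 6, so the 2 sets gave similar values. The sex term of these fits takes up ETAQ/+ mice 11 and 1, each alone of its sex in its set.

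Gys1 (ENSMUSG00000003865, chromosome 7, 45434844 to 45456619) ranged from 22.96 to 27.02 CPM in WT (median 24.8) and from 23.5 to 26.7 in ETAQ/+ (median 23.9), a log2 fold change of -0.04 ± 0.05. The groups overlapped, and 6.47% of its exon bases lie opposite Ruvbl2, whose reads cannot be told apart from its own there without the strand setting of the counting. Gyg (ENSMUSG00000019528, chromosome 3, 20122084 to 20155317) was the steadiest of these genes across genotypes, from 32.4 to 35.9 CPM in WT (median 34.6) and 33.2 to 36.05 in ETAQ/+ (median 34.5), a log2 fold change of 0.01 ± 0.04.

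Among the phosphorylase genes, Pygm was lower in ETAQ/+ within each set of mice. Pygm (ENSMUSG00000032648, chromosome 19, 6384399 to 6398459) had 183.6, 163.9 and 153.0 CPM in WT mice 2, 3 and 4 and 136.3, 147.0 and 137.0 in ETAQ/+ mice 1, 5 and 6. In mice 7 to 12 it had 131.3, 131.0 and 131.1 in WT mice 7, 10 and 12 and 121.3, 113.3 and 114.5 in ETAQ/+ mice 8, 9 and 11. Across all 12 mice the genotypes overlapped, because the WT mice of the second set stood below ETAQ/+ mice of the first. Within each set they did not, and the share of all tested genes without overlap within a set was not counted. The WT mice were all male in the first set and all female in the second, whereas the ETAQ/+ mice of each set were of both sexes. The log2 fold change was -0.21 ± 0.07 (SE) over all mice, -0.24 ± 0.08 within mice 1 to 6 and -0.16 ± 0.04 within mice 7 to 12. In the within-set fits the sex term takes up ETAQ/+ mice 1 and 11, each alone of its sex in its set. Muscle is known to express Pygm, and the first and second highest WT mice, 2 and 3, also had the highest muscle marker sums, 1015 and 316.8 CPM. In mice 7 to 12 those sums were 1.15 to 2.07 CPM. The part of muscle RNA in the Pygm values was not tested.

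Pygb (ENSMUSG00000033059, chromosome 2, 150786735 to 150831758) ranged from 376.3 to 432.2 CPM in WT (median 393.4) and from 364.9 to 399.7 in ETAQ/+ (median 382.2), a log2 fold change of -0.05 ± 0.03 with overlapping groups. Pygl (ENSMUSG00000021069, chromosome 12, 70190811 to 70231488) ranged from 5.66 to 7.73 in WT (median 5.98) and from 5.33 to 11.7 in ETAQ/+ (median 7.74), a log2 fold change of 0.31 ± 0.16. The Pygl groups overlapped, with ETAQ/+ mouse 1 highest and ETAQ/+ mouse 11 lowest of all, and without mouse 1 the log2 fold change was 0.17. The 3 phosphorylase genes are paralogs, but no 75-base sequence of Pygb or Pygm, and 0.161% of those of Pygl, occurred in a transcript of another gene, so the reads of the 3 can be told apart.

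The lysosomal enzyme and the glycogen phosphatase were near WT levels. Gaa (ENSMUSG00000025579, chromosome 11, 119267887 to 119285454) ranged from 306.3 to 359.7 CPM in WT (median 339.8) and from 309.4 to 370.6 in ETAQ/+ (median 352.6), a log2 fold change of 0.03 ± 0.04. Epm2a (ENSMUSG00000055493, chromosome 10, 11343404 to 11459644), which encodes the phosphatase laforin, ranged from 34.3 to 40.7 in WT (median 36.5) and from 33.5 to 43.05 in ETAQ/+ (median 37.7), a log2 fold change of 0.04 ± 0.06. The genotypes overlapped for both genes. For Gaa the mean transcript length that RSEM weights by its isoform estimates was 3415 ± 18.8 bases in WT and 3357 ± 21.6 in ETAQ/+, ranging from 3391 to 3442 and from 3337 to 3393. For Stbd1 this length was 1985 bases in every mouse.

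**Figure D2:**
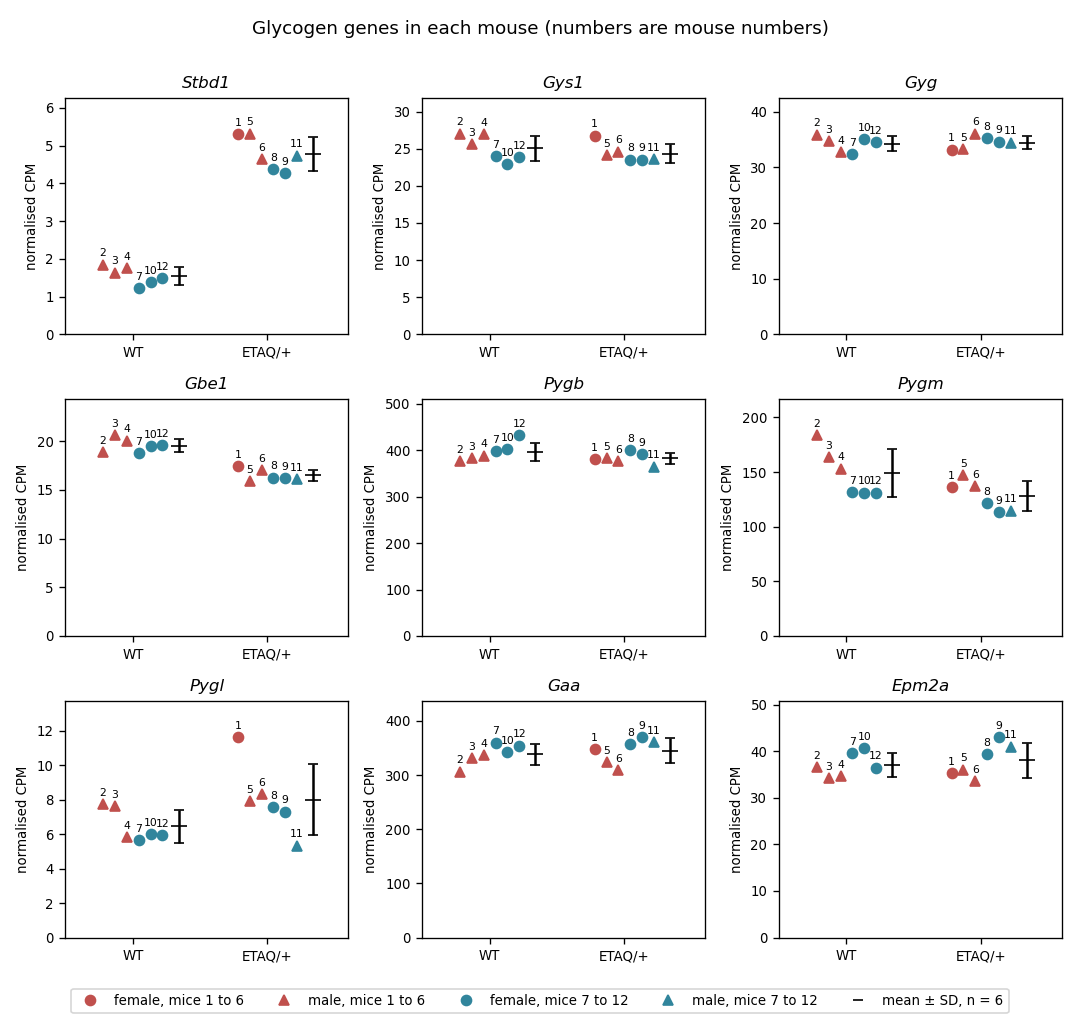
Normalised CPM of each gene in each mouse, with the mean ± SD of 6 mice per genotype and each axis starting at 0. Circles are females and triangles males, red points are mice 1 to 6 and blue points mice 7 to 12. Stbd1 and Gbe1 are the 2 genes whose genotypes do not overlap, and the red points of Pygm stand above the blue ones within each genotype.

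By edgeR, 2 of the 9 genes, Stbd1 and Gbe1, were among the 330 genes called for genotype, beside 1.92% of all 17189 tested. The same 2 were without overlap of the genotypes, beside 2.01% of all (0.657% higher in ETAQ/+ and 1.36% lower). These counts come from the contrast through which the set was put together and carry no further reading. With mouse set as a covariate Pygm was also called, giving 3 of 9 beside 2.71% of all. This count rests on the same contrast and carries no further reading either. Within mice 7 to 12 alone (0.651% of all called) and within mice 1 to 6 alone (0.52%) Stbd1 was the 1 gene of the 9 called, so the Gbe1 call was lost in each. Each set holds 3 mice per genotype, but the sex term takes up ETAQ/+ mouse 11 or 1, alone of its sex there. The within-set calls are likewise read no further. The median log2 fold change was 0.01 over the 9 genes and 0.00428 over all tested genes.

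The other genes of the pathway were listed by function and not for how they moved. Of 61 such genes, 58 were tested and 3 did not pass the filter on low counts (Gys2, Mgam and G6pc). In ETAQ/+, 0 rose, 1 fell and 57 did not pass, beside 0.582% higher and 1.34% lower among all tested genes. The single call was lost when mouse 2, 3, 6, 9, 10, 11 or 12 was left out, and within either set of mice alone.

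The median log2 fold change of the 58 genes was -0.01, against 0.00428 over all tested genes. At an unadjusted p under 0.05 there were 6 of the 58 genes, beside 10.9% of all tested genes. They were 1 of 13 genes of glucose entry and activation, which take glucose to UDP-glucose, 1 of 6 of lysosomal and other hydrolysis, 1 of 10 of protein phosphatase 1 and its glycogen targeting subunits, 1 of 11 of the GSK3, AMPK and PKA kinases and 2 of 8 adaptors and regulators of autophagy, through which glycogen reaches the lysosome. Of 8 genes of phosphorylase kinase, which switches phosphorylase on, and 2 genes of laforin partners, 0 did. Gabarapl1, the autophagy protein to which Stbd1 is known to bind, was at 408.2 ± 12.8 CPM in WT and 406.5 ± 20.2 in ETAQ/+ (log2 fold change -0.01, edgeR adjusted p = 0.978). Nhlrc1, which encodes malin, was at 11.1 ± 0.962 and 11.2 ± 1.501 CPM (0.01, adjusted p = 0.975). These 2 genes fall outside the naming rule and were picked with their values known. DESeq2 also called Ppp1r3e, a targeting subunit of protein phosphatase 1, which edgeR left at -0.95 ± 0.23 (adjusted p = 0.0757).

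**Figure D3:**
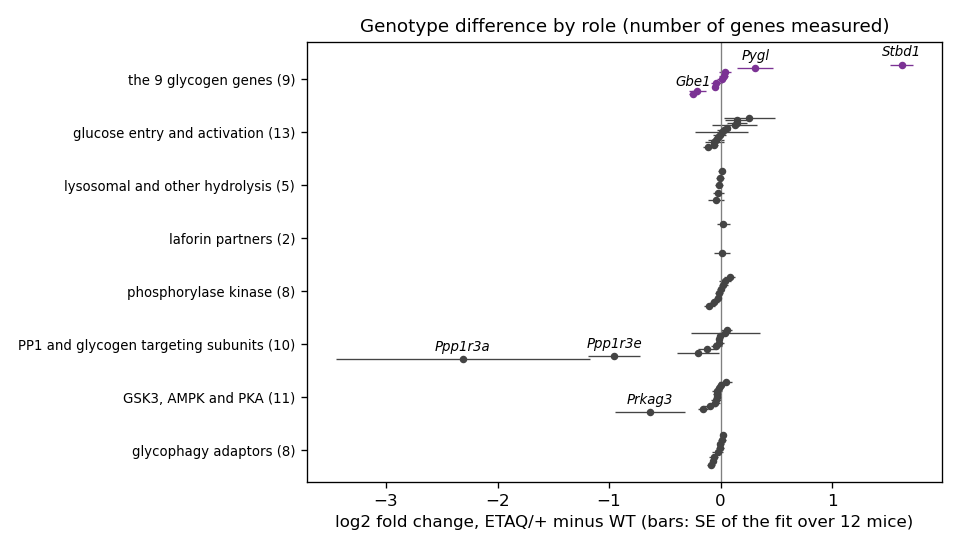
Log2 fold change of ETAQ/+ against WT for the 9 glycogen genes (purple) and for 57 further pathway genes (grey), by role, with the SE of the fit as bars. Stbd1 stands at 1.62 and Gbe1 at -0.24, most others lie near 0, and Ppp1r3a, Ppp1r3e and Prkag3, which did not pass the test, have the widest bars below 0.

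Between the sets of mice, a comparison that the choice of the genes did not use, 3 of the 9 differed, beside 7.89% of all tested genes (4.93% higher in mice 1 to 6 and 2.96% lower). At an unadjusted p under 0.05 it was 5 of 9, beside 21.9% of all. Pygl was higher in mice 1 to 6 by log2 0.67 ± 0.10 (SE, edgeR adjusted p = 0.000703), at 8.18 ± 1.91 against 6.30 ± 0.915 CPM (n = 6 each). The log2 fold changes between sets are adjusted for genotype and sex and the means are not, and the Pygl means differ by less. Pygm was higher by 0.28 ± 0.05 (adjusted p = 0.00461), at 153.5 ± 18.0 against 123.8 ± 8.52. Epm2a was lower, by log2 -0.20 ± 0.06 (adjusted p = 0.0362), at 35.03 ± 1.15 against 40.02 ± 2.18. Of these 3 genes, only Pygm had set ranges that did not overlap, at 136.3 to 183.6 and 113.3 to 131.3. The highest Epm2a value of mice 1 to 6, 36.6, lay just above the lowest of mice 7 to 12, 36.5. Gys1, which was not called, also had ranges without overlap, at 24.12 to 27.02 and 22.96 to 23.98. The share of all tested genes without overlap of the sets was not counted. Pygl is the form that liver and white blood cells use, and beside its values the neutrophil markers summed to 95.2 to 176.6 CPM in mice 1 to 6. All 10 muscle, 7 neutrophil and 3 Schwann cell markers were called higher in mice 1 to 6, as were all 6 red cell markers, which summed to 1913 to 3545 CPM against 143.2 to 269.6, and all 4 fibroblast markers, with 153.0 to 331.3 against 62.8 to 74.5. Of the 9 astrocyte markers 3 were called higher in mice 1 to 6, with sums of 7205 to 8398 against 7297 to 8197 CPM. The 3 adipocyte markers summed to at most 2.999 CPM and the 3 hepatocyte markers to at most 3.135 in any mouse. The part of each of these in the set differences was not tested.

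The set differences rested in part on mice 1 and 11, which alone separate set from sex. Without mouse 1 the adjusted p was 0.0883 for Pygm, 0.0923 for Pygl and 0.266 for Epm2a, and without mouse 11 it was 0.226 for Pygm and 0.433 for Epm2a, with every log2 fold change in the same direction. The Epm2a call was also lost without mouse 6, 7 or 10. The other 6 genes did not pass, Gys1 standing at 0.15 ± 0.05 (adjusted p = 0.0897) and Stbd1 at 0.22 ± 0.12 (adjusted p = 0.285). Of the 58 pathway genes 4 were higher and 3 lower in mice 1 to 6. Hk3, the hexokinase of white blood cells, was higher by 0.995 ± 0.15 (adjusted p = 0.000719), Pgm2, a phosphoglucomutase gene, by 0.19 ± 0.03 (adjusted p = 0.00141), and Prkacb, a catalytic subunit of protein kinase A, was at -0.15 ± 0.03 (adjusted p = 0.00954). These 3 calls were lost without mouse 1, and those of Pgm2 and Prkacb also without mouse 11.

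**Figure D4:**
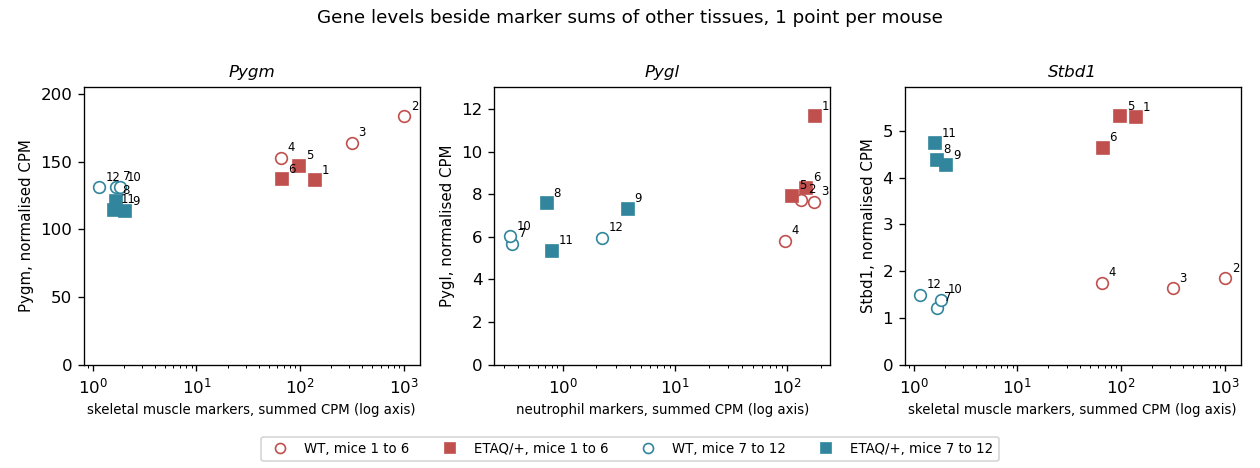
Normalised CPM of Pygm, Pygl and Stbd1 in each mouse against the summed CPM of skeletal muscle or neutrophil markers (log axis). Open circles are WT and filled squares ETAQ/+, red for mice 1 to 6 and blue for mice 7 to 12. Pygm was highest in mouse 2, which has a muscle sum of 1015 CPM, and the Stbd1 values of ETAQ/+ mice, 4.27 to 5.31 CPM, lie above those of WT mice, 1.22 to 1.85, in both sets.

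Sex and the interactions gave no call among the 9 genes. For sex, edgeR called 0 of 9 and DESeq2 0, beside 16 genes called of 17189 (0.0931%, with 0.0582% higher in females and 0.0349% lower). At an unadjusted p under 0.05 there were 3 of 9, beside 16.8% of all. Pygm was lower in females by the estimate, -0.23 ± 0.07 (adjusted p = 0.200), Pygb was at 0.08 ± 0.03 (adjusted p = 0.213) and Gaa at 0.11 ± 0.04 (adjusted p = 0.200). Pygm passed without mouse 1 (adjusted p = 0.0388) or mouse 11 (0.0208), and Gaa without mouse 11 (0.0290), the mice without which sex and set cannot be separated as well. For the genotype by sex interaction edgeR called 0 of 17189 genes (0%), 852 (4.96%) having an unadjusted p under 0.05, 1 of them among the 9, and DESeq2 called 3, none of them among the 9. Gys1 had the smallest unadjusted p of the 9, with a difference of genotype effects of 0.20 ± 0.09 (adjusted p = 0.901), and for Pygl it was 0.56 ± 0.28 (adjusted p = 0.901). For the genotype by set interaction edgeR also called 0 of 17189 (0%), 683 (3.97%) having an unadjusted p under 0.05, 0 of them among the 9, and DESeq2 called 3, again none of the 9.

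Among the WT mice alone, Gbe1 and Gyg varied least, with a coefficient of variation of 3.61% and 4.01% over 6 mice, and Stbd1, Pygl and Pygm most, with 15.2%, 14.7% and 14.7%. These values pool both sets of mice and differing depths, and among WT mice the sets are also the sexes. WT Pygm was at 166.8 ± 15.5 CPM in mice 2, 3 and 4 and at 131.1 ± 0.157 in mice 7, 10 and 12 (n = 3 each), and the WT libraries held 34 to 72 counts of Stbd1. The median over all tested genes was 8.2%.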

How the data were processed

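Whole spinal cord polyA RNA of 12 mice was sequenced as paired reads, per the labels' protocols. Bowtie2 2.2.0 and RSEM 1.2.12 are named in the submitters' processing notes. Build, annotation and strand setting are not given in the sources used here. Deposited by the authors were expected counts (15.4% not whole, not normalised) beside TPM and FPKM values, the last pair scaled by length and library per the file headers. Expected counts were rounded and tested in R 4.3.3 with edgeR 4.0.16 (TMM factors 0.975 to 1.02, filterByExpr over the 4 genotype-by-sex groups, robust quasi-likelihood test, two-sided, Benjamini-Hochberg over 17189 genes, threshold 0.05). Sex was a covariate for genotype, genotype for sex, and both for mouse set, with an interaction term for each difference of genotype effects. The SE is the absolute log2 fold change over the square root of F. DESeq2 1.42.0, limma 3.58.1, other scaling, no filter, subsets and leaving out each mouse were alternatives. In fits within a set of mice, the sex term took up mouse 1 or mouse 11, alone of its sex there. TPM was used for levels only. In CPM, 3 counts correspond to 0.0724 to 0.127, for counting error only. Positions come from GENCODE M21 (GRCm38) and promoters from RefSeq (GRCm38.p6).

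The members and lists were chosen with earlier results of these data known. Named genes were all 9 members, pathway genes called for genotype (1 is not reported here), the 3 pathway genes with the smallest p for set, the 5 nearest profiles to Stbd1, its neighbours, and Gars. Marker lists covered cord, astrocytes, motor and sensory neurons, muscle, red cells, neutrophils, fibroblasts, adipocytes, Schwann cells and hepatocytes. The fits were tested on simulated data. A 1.5-fold change was called in 84% of the changed genes for genotype, 40% for the sex interaction and 36.7% for the set interaction. At 1.2-fold it was 52%, 8% and 6.12%, so the lack of an interaction call says little about small differences.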

Additional observations from a re-analysis of the deposited data

Results flagged for a closer look

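In ETAQ/+ mouse 1, Gys1 stood at 26.7 normalised CPM, apart from the other 5 ETAQ/+ mice, of which the lowest was at 23.5. Its gap to the nearest of them was 0.665 of the group's whole range, above Dixon's 95% critical value for 6 samples. The 2 genotype groups of 14 genes were checked in this way, 28 groups in all, and 1 passed, where chance flags about 1 in 20. The WT mice 2, 3 and 4 of the same set had Gys1 values of 27.02, 25.6 and 26.95.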

How the results depend on the processing

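No paired analysis was possible because the mice carry numbers from 1 to 12 that no 2 mice share. The log2 fold changes of Stbd1 (1.5 to 1.66), Gbe1 (-0.27 to -0.23), Pygm (-0.25 to -0.15) and Pygl (0.17 to 0.42) kept their sign in all 19 alternatives, and Gys1 moved by more than the spread between mice only within mice 1 to 6 (-0.13). Against 330 genotype calls, DESeq2 gave 506, mice 7 to 12 alone 112 and mice 1 to 6 alone 92, with fewer mice in the last pair. Higher and lower calls were 100 and 230 over all mice, 162 and 344 with DESeq2, 30 and 82 in mice 7 to 12, and 49 and 43 in mice 1 to 6. The pathway list, with 1 call, had 2 with DESeq2, 2 with limma-voom (Ppp1r3e added each time), 2 with mouse set as a covariate (Pgm2 added) and 0 within either set. Against 16 sex calls, DESeq2 gave 321 and mouse set as a covariate 9. DESeq2 called 3 genes for each interaction. Leaving out 1 mouse gave 236 to 315 genotype calls, 0 to 2 pathway calls, 11 to 1180 sex calls (1018 without mouse 1, 1180 without mouse 11), 163 to 1563 set calls (163 without mouse 1, 284 without mouse 11, against 1356), 0 to 2 calls for the sex interaction and 0 to 3 for the set interaction. The cause was not tested. FPKM gave the same order of all 9 genes as TPM, and 3 of the 5 genes nearest to Stbd1 were shared with a root mean square measure. Depth limits Stbd1 most, with 34 counts in its lowest library.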

Other observations

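Ppp1r3e, chosen after its values were seen, stood at 10.1 ± 2.43 normalised CPM in WT (n = 6, 8.08 to 14.1) and at 5.26 ± 1.91 in ETAQ/+ (n = 6, 3.46 to 8.87), and ETAQ/+ mouse 5 alone lay within the WT range. Its mean transcript length as RSEM estimates it was 1487 ± 41.9 bases in WT and 1777 ± 154 in ETAQ/+. The gene lies on chromosome 14 (54872669 to 54877550, GRCm38). Ppp1r3a, a phosphatase subunit of muscle also picked with its values known, was at 3.15 CPM in WT mouse 2 and at 0 in mice 8, 9, 11 and 12, and mouse 2 also had the highest sum of muscle markers. Their part in the Ppp1r3a values was not tested.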
